A study of Mus musculus with 14 samples.

Results

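The 9 odorant receptor (OR) genes described here are those whose neurons have been followed most often in gene-targeted mice to study how olfactory axons find their glomeruli. They are Olfr151 (M71), Olfr160 (M72), Olfr17 (P2), Olfr1507 (MOR28), Olfr16 (MOR23), Olfr73 (mOR-EG), Olfr2 (I7), Olfr15 (MOR256-17) and Olfr78 (MOL2.3, also MOR18-2). They were chosen by gene symbol and not by their values, and all 9 were present among the 1407 OR symbols and 51211 gene symbols of both experiments.

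RNA was measured in whole olfactory epithelia of 14 mice, 1 mouse per library, at postnatal day 5. In the first experiment, 3 Kir2.1 mice carried OMP-IRES-tTA and tetO-Kir2.1-IRES-tauLacZ, and 3 Kir2.1 control mice carried OMP-IRES-tTA alone, so that both groups shared the modified Omp locus. The tTA is made under Omp, a gene of mature olfactory sensory neurons (OSNs), and it turns on Kir2.1, a potassium channel that silences them. In the second experiment, 4 wild type pups were exposed to 2-phenylethylamine (PEA) from P0 to P5, and 4 wild type pups were PEA controls. The labels give C57BL/6 as the strain of all mice and the study's methods give CD-1 for the PEA pups. The labels call the Kir2.1 mice by the name used for doxycycline-fed adults, but these were P5 mice.

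Each OSN expresses a single OR gene from 1 of its alleles, and the axons of all neurons with the same OR converge on a few glomeruli in the olfactory bulb. The receptor signals through the G protein subunit Gnal, the adenylyl cyclase Adcy3 and a cyclic nucleotide-gated channel, and its activity also sets the amounts of axon-sorting molecules such as Kirrel2. M72 and its close relative M71 respond to acetophenone, MOR23 to lyral, mOR-EG to eugenol and I7 to octanal. P2 was among the first ORs whose axons were traced with a genetic label, MOR28 lies beside the H enhancer, and MOR256-17 responds to many odorants. Olfr78 is a class I OR for short-chain fatty acids that is also expressed in blood vessels and the carotid body.

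The genes lie on 6 chromosomes of GRCm38 (GENCODE vM21 gene models). M71 (chr9:37729977-37731104, minus strand) and M72 (chr9:37708964-37716250, minus strand) are neighbors whose starts are 14.9 kb apart. P2 (chr7:107093220-107099808, plus strand) and I7 (chr7:106995399-107006072, minus strand) share a cluster and start 87.1 kb apart, while Olfr78 (chr7:102738511-102759471, minus strand) lies in the class I cluster of the same chromosome. MOR28 is at chr14:52488791-52495749 (minus strand), MOR23 at chr1:172950409-172958357 (plus strand), mOR-EG at chr2:88032288-88037699 (minus strand) and MOR256-17 at chr16:3830878-3844747 (plus strand). Of these gene models, only that of Olfr78 overlapped another gene, Olfr560, which is on the same strand and had mean normalized counts of 49.5 and 16.4 in the Kir2.1 and PEA experiments.

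M71 and M72 are nearly the same gene in sequence, which bears on how well short reads can tell them apart. Their coding sequences were 96.3% identical, with 30 mismatched bases, while every other pair of the 9 was between 49.4% and 58.5% identical. The first pair of stretches shown here, bases 67 to 126 of both coding sequences, holds at least as many differences as any other 60 bases before the gap described next, and the 8 differing bases are in capitals. M72 is read from chr9:37712152-37712211 and M71 from chr9:37730856-37730915, both on the minus strand of GRCm38.
Olfr160 (M72): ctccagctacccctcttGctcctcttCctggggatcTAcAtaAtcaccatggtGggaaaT
Olfr151 (M71): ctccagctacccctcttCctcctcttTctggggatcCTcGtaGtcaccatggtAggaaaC

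The second pair shows the only gap between both sequences inside the reading frame. It comes from chr9:37711508-37711567 (M72) and chr9:37730213-37730271 (M71), again on the minus strand, and the capitals mark a run of a single kind of base that is 3 bases long in M72 and 2 bases long in M71.
Olfr160 (M72): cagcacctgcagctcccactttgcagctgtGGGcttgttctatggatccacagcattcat
Olfr151 (M71): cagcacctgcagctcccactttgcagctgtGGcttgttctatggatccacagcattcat

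The missing base shifts the reading frame of the M71 model at coding base 741 of M72, and the M71 model meets an in-frame stop at codon 259, while M72 has 309 codons. GENCODE lists M71 as a polymorphic pseudogene, a gene that is intact in some strains and broken in others, and the M71 model of this reference covers only 1128 bases in 1 exon. The other 8 models are protein coding and include untranslated exons, with longest transcripts of 2690 to 6240 bases. The longest stretch of coding bases in which M71 and M72 are identical is 177 bases, so a read can fall where nothing separates them.

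Exact matches of read length were counted over all annotated mouse transcripts. Of the windows of 40 bases (the read length of the Kir2.1 libraries) in the M71 model, 39.0% also occurred in M72, and 12.4% of the M72 windows occurred in another gene. MOR28 had 9.26% of its 40-base windows in another gene, most of them in the neighboring Olfr1508, and the remaining members had between 0% (MOR23) and 5.10% (I7). At 150 bases, the read length of the PEA libraries, 2.86% of the M71 windows and 0.84% of the M72 windows were shared, and no other member shared any. Values of M71 and M72 therefore carry an uncertainty in how reads were divided that the other members have to a lesser degree.

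Values are normalized counts: the authors' per-gene read estimates, scaled between the mice of an experiment. Per-mouse sums ran from 33049111 to 34198478 for Kir2.1 libraries and from 11476120 to 12467331 for PEA libraries, and since scaling came first, the number of reads in each library is not known. The lowest common step of the values was 0.96 to 1.0 in the first experiment and 0.81 to 1.2 in the second, so that 1 normalized count stood for about 1 read and a gene at 50 rested on few reads. Kcnj2, the gene of Kir2.1, was at 1111 ± 148 in Kir2.1 control mice and 20216 ± 3457 in Kir2.1 mice (SD, n = 3), which matches their genotypes. Vomeronasal receptor genes, which mark the neighboring vomeronasal organ and not the olfactory epithelium, had a mean log2 value of 6.06 in Kir2.1 control 1 and between 2.42 and 2.51 in the other 5 mice of that experiment. In the PEA experiment this value was between 3.92 and 5.76 in PEA control 1 to 3 and in PEA 1, and between 1.43 and 1.71 in the other 4 mice.

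To compare levels between genes, normalized counts were divided by the length of the longest annotated transcript in kb. In Kir2.1 control mice, MOR28 had a level of 398 ± 42.4 normalized counts per kb (SD, n = 3), the highest of 1395 OR genes with a known length. MOR256-17 followed at 92.4 ± 9.46 and rank 21, and P2 at 43.4 ± 7.91 and rank 132. The ranges of these 3 genes over the mice did not overlap. Olfr78 (29.2 ± 11), MOR23 (26.8 ± 7.21), M72 (25 ± 6.84) and mOR-EG (23.7 ± 4.51 per kb) came next, and each overlapped its neighbors in this order, so they could not be ranked among themselves. Olfr78 also overlapped P2 in its range. I7 was lower, at 9.56 ± 3.18 per kb, below the whole range of mOR-EG, and M71 was last at 4.33 ± 3.59 per kb, rank 1111, with a range that overlapped that of I7.

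The same genes stood at the ends of the order in PEA control mice. MOR28 led there too, at 120 ± 27.6 normalized counts per kb (SD, n = 4) and again rank 1 of 1395, and MOR256-17, P2, MOR23, Olfr78 and mOR-EG lay between 27.4 and 12.8 per kb with overlapping ranges between neighbors. M72 was at 6.73 ± 1.92 per kb, below the range of mOR-EG, which it had overlapped in the Kir2.1 control mice. M72 ranked 342 among OR genes in the Kir2.1 control mice and 824 in the PEA control mice, while P2 ranked 132 and 148. The experiments differed in RNA selection, read length, strand and, per the methods, strain, and were normalized apart, so their levels were not tested against each other. I7 (3.83 ± 1.52) and M71 (1.51 ± 2.06 per kb) were last, with M71 listed at 0 in 2 of the 4 mice.

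**Figure D1:**
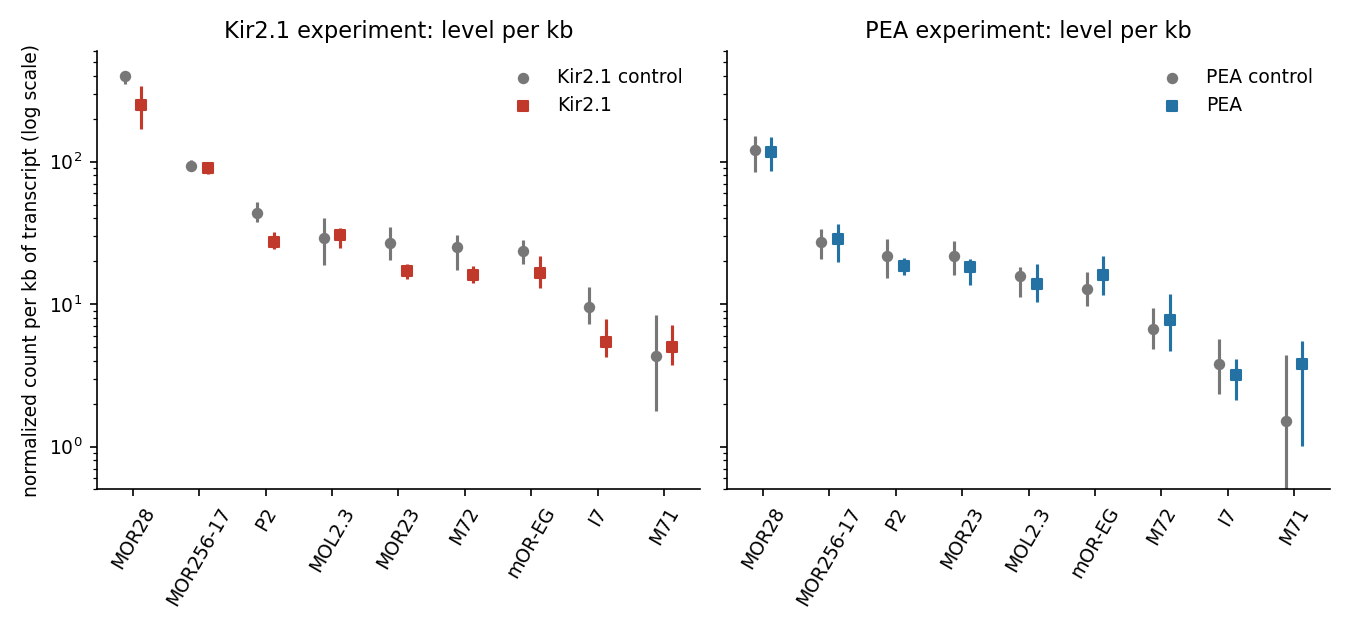
Normalized counts per kb of the longest annotated transcript (log axis), with the mean of each group as a marker (circles, controls; squares, Kir2.1 or PEA mice) and a line from the lowest to the highest mouse; a line that reaches the lower edge includes mice below 0.5. MOR28 sat alone at the top in all 4 groups, with control means of 398 and 120 in both experiments and means of 251 in Kir2.1 and 116 in PEA mice, and M71 and I7 lay at the lower end.

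To ask whether silencing of OSNs altered the expression of these receptors, Kir2.1 mice were compared with their controls on log2(normalized count + 1), a scale that understates changes of low genes. Of the 8 members with a mean of at least 10, 0 passed an adjusted p of 0.05 by limma with Benjamini-Hochberg adjustment over 19807 genes, of which 0.353% passed. The estimate was below 0 for 7 of 8 members, against 48.8% of all genes tested and 83.8% of the 1071 OR genes tested. The median over these 8 members was -0.61 on the log2 scale, beside -0.44 over the OR genes tested and 0.01 over all genes tested. P2, MOR28 and MOR23 were the 3 members with an unadjusted p under 0.05 in the lower direction, a share that was 6.20% over all genes tested and 25.1% over OR genes. The same 3 were those in which no Kir2.1 mouse reached the lowest control, as did 9.04% of all genes tested and 30.6% of OR genes. None of the 8 passed an unadjusted p of 0.05 in the higher direction, which 0.5% of OR genes passed. Over all 19807 genes tested, 2205 passed it in either direction and 1229 in the lower.

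MOR28, the most abundant member, was at 1187, 977 and 1179.6 normalized counts in Kir2.1 control 1, 2 and 3 and at 682, 954 and 474 in Kir2.1 mice 1, 2 and 3. The groups did not overlap, but Kir2.1 mouse 2 came within a small distance of the lowest control. The Kir2.1 mean was 63.1% of the control mean (1115 ± 119 and 703 ± 241, SD, n = 3; log2 fold change -0.72, SE 0.24, limma adjusted p = 0.325). The exact two-sided permutation test gave p = 0.1, the smallest that 3 against 3 mice allow, as for each of the 3 members with separate groups.

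P2 had 147, 192 and 138 normalized counts in the control mice and 89.2, 117 and 94.6 in the Kir2.1 mice. All Kir2.1 mice were below all controls, by a margin that was small beside the spread of the controls. The log2 fold change was -0.66 (SE 0.19, limma adjusted p = 0.269), with means of 159 ± 29.0 and 100.3 ± 14.7 (SD, n = 3). It was the 1 member whose unadjusted limma p stayed under 0.05 with each of the 6 mice left out in turn. MOR23 was at 68.6, 93.0 and 54.6 in the control mice and at 51.5, 40.3 and 45.1 in the Kir2.1 mice, again with no overlap. Its log2 fold change was -0.62 (SE 0.25, limma adjusted p = 0.425). The means of P2 and MOR23 in Kir2.1 mice stood at 63.0% and 63.3% of control, next to the 63.1% of MOR28.

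M72, the receptor of the tagged neurons that the study recorded from in adults, showed a like difference with overlapping groups. Its values were 60.5, 106 and 95.6 in the control mice and 64.9, 54.7 and 48.8 in the Kir2.1 mice. Kir2.1 control 1, the mouse with high vomeronasal receptor values, was the low control and lay within the Kir2.1 range. The log2 fold change was -0.60 (SE 0.26, limma adjusted p = 0.463), and -0.84 without that mouse (limma adjusted p = 0.357). mOR-EG had 58.6, 72.5 and 86.0 in the control mice and 66.7, 44.6 and 39.3 in those with Kir2.1 (log2 fold change -0.54, SE 0.27, limma adjusted p = 0.540). I7 had 81.5, 45.1 and 50.6 against 26.1, 48.3 and 26.1 (log2 fold change -0.81, SE 0.35, limma adjusted p = 0.456). In both genes 1 Kir2.1 mouse lay among the controls, mouse 1 for mOR-EG and mouse 2 for I7.

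MOR256-17 and Olfr78 did not show this lower level. MOR256-17 was at 536, 551 and 644 normalized counts in the control mice and at 507, 573 and 609.7 in the Kir2.1 mice. The groups overlapped, with Kir2.1 mouse 1 below all controls. Its log2 fold change was -0.03 (SE 0.12, 95% interval -0.31 to 0.24, limma adjusted p = 0.957), an interval that does not reach the median of the OR genes. Olfr78 was at 87.6, 190.2 and 133 in the control mice and at 159.5, 117 and 152 in the Kir2.1 mice. The controls of Olfr78 spread over more than the whole Kir2.1 range (log2 fold change 0.12, SE 0.29, 95% interval -0.56 to 0.80, limma adjusted p = 0.936). The sign of its difference rested on Kir2.1 control 1, without which the log2 fold change was -0.17.

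**Figure D2:**
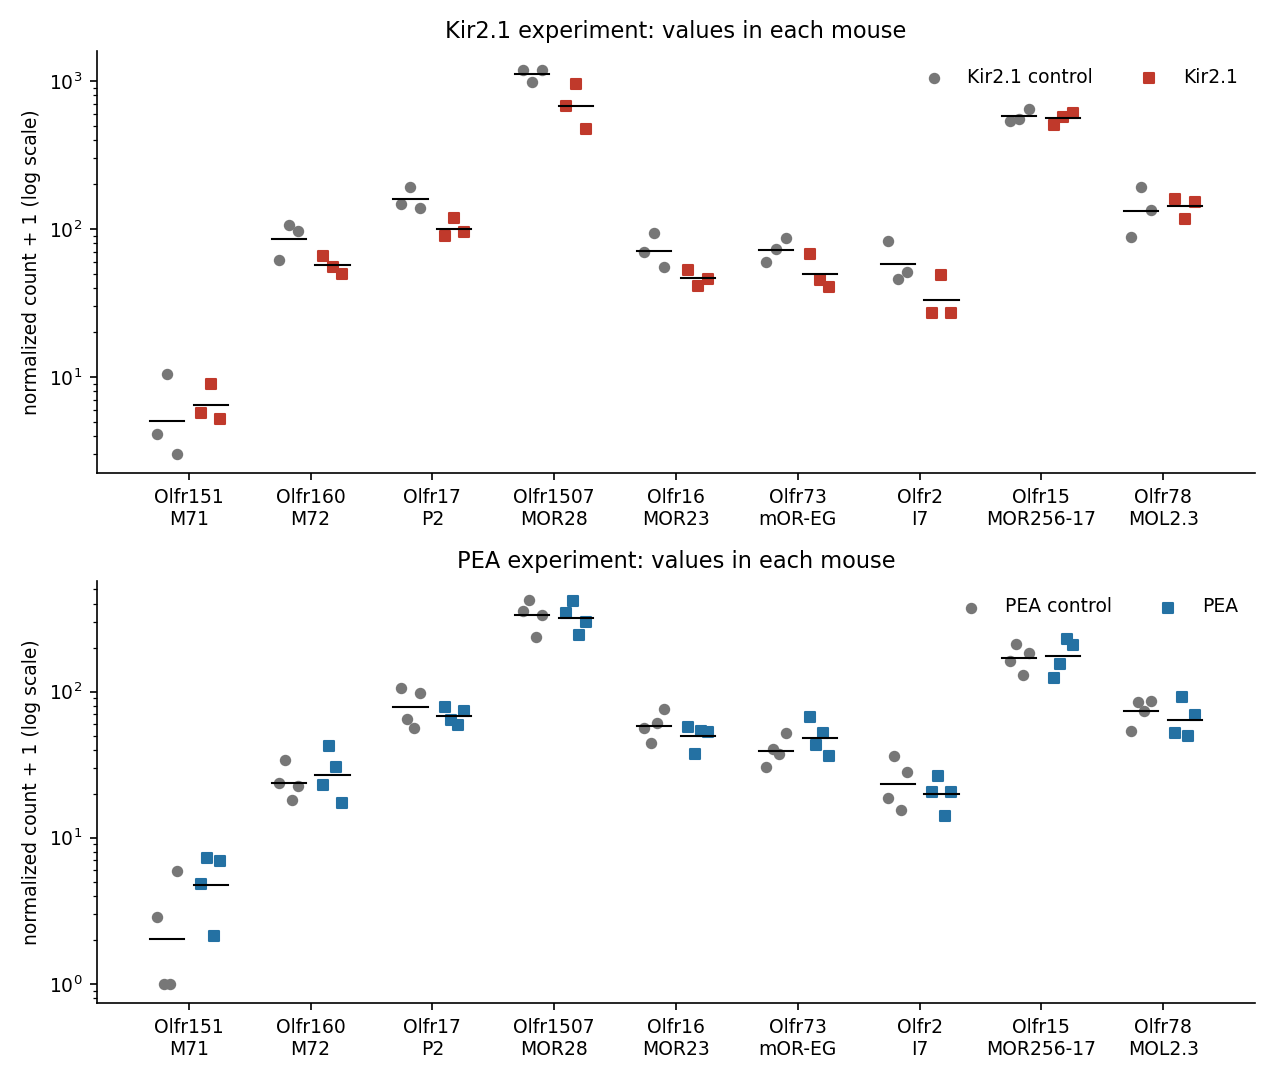
Normalized count + 1 (log axis) of the 9 genes in each mouse, with gray circles for controls and colored squares for Kir2.1 or PEA mice; the lines are means on the log scale. In the Kir2.1 experiment the squares of P2, MOR28 and MOR23 lie below all circles, while the groups of MOR256-17 and Olfr78 overlap. In the PEA experiment the groups overlap for all 9 genes.

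The lower values stood within a lower level of OR transcripts as a whole. All 1407 OR symbols summed to 81152, 88288 and 82174 normalized counts in the control mice and to 63923, 65703 and 58018 in the Kir2.1 mice. All Kir2.1 mice were thus below all controls. The 9 members made up 2.53% to 2.90% of the OR sum in the control mice and 2.57% to 2.98% in the Kir2.1 mice, ranges that overlap. MOR28 alone was 1.11% to 1.46% of the OR sum in the control mice and 0.817% to 1.45% in the Kir2.1 mice.

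Each member was also set against the median log2 value of the OR genes in the same mouse, which takes this shared level out. MOR28, P2, MOR23, M72, mOR-EG and I7 then differed between groups by -0.34 to -0.06 on the log2 scale, and all 6 had overlapping groups (exact permutation p between 0.2 and 0.8). MOR256-17 lay 3.42, 3.20 and 3.60 above the OR median in the control mice and 3.68, 3.82 and 4.04 above it in the Kir2.1 mice. On this relative scale its groups did not overlap, with a difference of 0.44 (exact permutation p = 0.1, the smallest possible for 3 against 3). The share of OR genes with groups apart on this scale was not counted, and 81.4% of OR genes tested had a lower log2 fold change than MOR256-17. Olfr78 lay 0.82, 1.67 and 1.33 above the OR median in the control mice and 2.02, 1.53 and 2.05 above it in the Kir2.1 mice. Its difference was 0.59, with Kir2.1 mouse 2 below the highest control (exact permutation p = 0.2). With all genes centred on the OR genes, limma gave MOR256-17 an adjusted p of 0.0415 and 53.1% of all genes tested passed as well, since this scaling moved the median log2 fold change of all genes to 0.48.

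**Figure D3:**
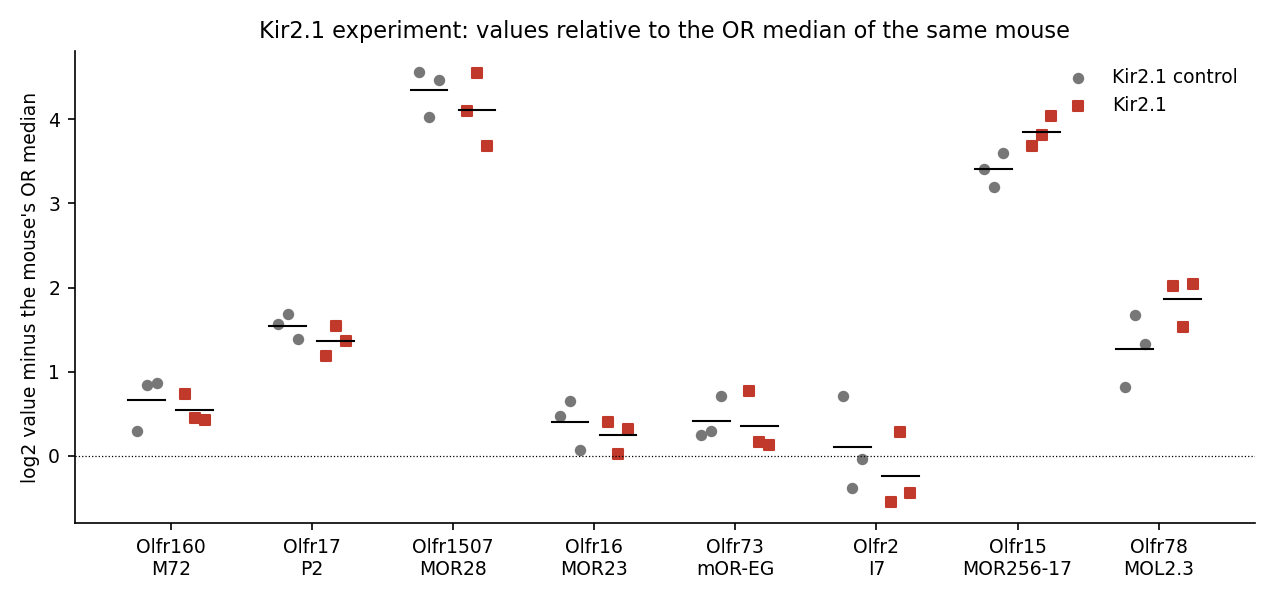
Log2 value of each member minus the median log2 value of the OR genes in the same mouse, Kir2.1 experiment; gray circles are control mice, red squares are Kir2.1 mice and lines are means. MOR256-17 is the single member whose groups are apart on this scale, higher by 0.44 in Kir2.1 mice, and the other 7 overlap. How many of all OR genes are apart on this scale was not counted.

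Markers of the neurons that express ORs, and blood and immune markers, also differed in their summed levels between the groups. The summed normalized count of 8 mature OSN markers ran from 123769 to 138158 in the control mice and from 90993 to 103522 in the Kir2.1 mice, and all 8 had an unadjusted p under 0.05 in the lower direction by limma. Omp, one of them and the gene that carries tTA in both groups, fell to 66.0% of control (log2 fold change -0.60, SE 0.08, limma adjusted p = 0.0466). The 6 markers of immature OSNs, none with an unadjusted p under 0.05, summed to 87377 to 91182 in the control mice and 78285 to 99726 in the Kir2.1 mice. The 5 blood and immune markers summed to 6191 to 10775 in the control mice and 11643 to 17395 in the Kir2.1 mice, with 3 of 5 at an unadjusted p under 0.05 in the higher direction and 0 at an adjusted one. Most of these sums came from the hemoglobin genes Hba-a1 and Hbb-bs, at 202% and 183% of control in Kir2.1 mice. The third was Ptprc, at 166% of control, while the immune markers Aif1 and Cd74 were at 99.9% and 130% without such a p. Over all 19807 genes tested, 2205 had an unadjusted limma p under 0.05 in either direction and 1229 in the lower. No marker of the lists in this paragraph was at 0 in all 6 mice. In a whole tissue, fewer neurons that express a receptor and less receptor RNA per neuron cannot be told apart, and the part of these shifts in the values of the members was not tested.

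The genes of the receptor pathway gave a frame for the members. They were listed from knowledge of OR signaling and axon sorting, with earlier results of these data known. The study had already reported Kirrel2 and Epha5 as lower in these same mice, so their calls here are not independent of the choice. All 33 pathway genes were tested in the Kir2.1 experiment, and their median log2 fold change was -0.24. Of them, 4 passed limma's adjusted p of 0.05 in the lower direction and 0 in the higher. Kirrel2, an adhesion molecule that sorts axons of like receptors, fell from 13787 ± 839 to 4127 ± 502 (SD, n = 3; log2 fold change -1.75, SE 0.10, limma adjusted p = 0.00128). Epha5, a guidance receptor for ephrins, fell to 50.1% of control (-0.99 on the log2 scale, limma adjusted p = 0.0180), and Pde1c, a phosphodiesterase that degrades cAMP, to 63.7% (-0.65, limma adjusted p = 0.0223). Omp was the fourth. Kirrel2 was thus at a lower share of control than any of the 9 members, and Pde1c at a share near those of MOR28, P2 and MOR23 but with a smaller spread between mice.

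The clusters around M72, P2 and MOR28 were examined for OR genes that start within 200 kb. Around P2, 10 neighbors were tested, 9 of them had estimates below 0, and their median log2 fold change was -0.47, beside -0.66 for P2 and -0.44 for the OR genes tested, of which 83.8% were below 0. Around MOR28, the 6 neighbors had a median of -0.03, with values from -0.62 to 0.28, beside -0.72 for MOR28. The lowest of these was Olfr1508, the neighbor that shares 40-base windows with MOR28 and the nearest of them at 28.3 kb. The 5 neighbors of M72 had a median of -0.05, and they ranged from -0.59 to 0.26.

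Over all members, 84 OR genes lay within this distance, none of them near MOR256-17. Of the 66 tested in the Kir2.1 experiment, 56 had estimates below 0 and their median was -0.33, while 0 passed the adjusted threshold and 10 an unadjusted p of 0.05 in the lower direction by limma. Over all OR genes tested, 83.8% were below 0, 25.1% passed that unadjusted p and the median was -0.44. The largest differences were those of Olfr1532-ps1, near P2 and I7, with -1.49 (SE 0.41, limma adjusted p = 0.237), and of Olfr1152, near mOR-EG, with -1.32 (SE 0.31, limma adjusted p = 0.180).

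**Figure D4:**
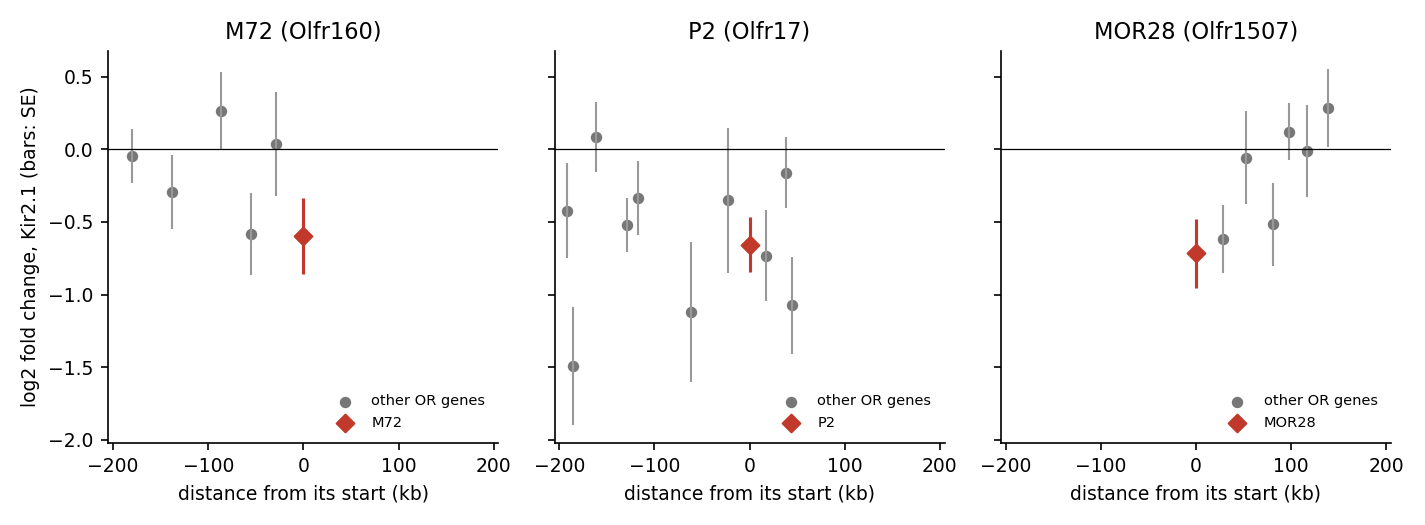
Log2 fold change in Kir2.1 against control mice (y axis; bars are standard errors) of OR genes around M72, P2 and MOR28, by the distance of their starts in kb from that of the named receptor (red diamond at 0). Most neighbors of P2 lie below 0, with a median of -0.47, while the neighbors of MOR28 scatter about 0 with a median of -0.03.

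PEA exposure asked whether an odor present from birth altered the same receptors. Among 8 members tested, 0 passed limma's adjusted p of 0.05, as did 0.179% of 17322 genes, and 0 had an unadjusted p under 0.05, beside 15.0% of all genes tested. For all 8 the groups overlapped, while 9.32% of all genes tested had groups that did not. Estimates were below 0 for 5 of 8 members, beside 53.5% of all genes tested and 67.4% of 994 OR genes. The median over the 8 was -0.13 on the log2 scale, beside -0.16 over OR genes and -0.02 over all genes tested.

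MOR28 was at 357, 423, 236 and 335 normalized counts in PEA control 1 to 4 and at 345, 415, 243 and 300.2 in PEA mice 1 to 4. The means of 338 ± 77.5 and 326 ± 72.6 (SD, n = 4) were close and the log2 fold change was -0.05 (SE 0.20, 95% interval -0.50 to 0.41, limma adjusted p = 0.937). P2 was at 105, 64.1, 55.5 and 97.3 in the control mice and at 77.1, 62.8, 58.2 and 73.0 in the PEA mice, all of the latter within the control range (log2 fold change -0.20, SE 0.23, limma adjusted p = 0.721). M72 had 22.5, 32.9, 17.0 and 21.5 in the control mice and 22.0, 41.3, 29.3 and 16.3 in the PEA mice (log2 fold change 0.16, SE 0.33, limma adjusted p = 0.858). Its PEA mice lay on both sides of the controls.

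The largest difference among the 8 was that of mOR-EG, the eugenol receptor, which was higher in the PEA mice by 0.30 on the log2 scale (SE 0.25, 95% interval -0.26 to 0.86, limma adjusted p = 0.617). It had 29.5, 39.2, 36.6 and 51.1 in the control mice and 66.3, 42.2, 50.8 and 35.4 in the PEA mice. PEA 1 was above all controls and PEA 4 below 3 of them. Against the OR median of the same mouse, the difference of mOR-EG was 0.45 (exact permutation p = 0.0571), still with an overlap.

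The remaining members were MOR23, I7, Olfr78 and MOR256-17. Their log2 fold changes were -0.23, -0.22, -0.21 and 0.04, with limma adjusted p between 0.663 and 0.955. MOR23 ran from 43.2 to 75.1 in the control mice and from 36.4 to 56.0 in the PEA mice, and I7 from 14.5 to 35.2 and from 13.2 to 25.6. Olfr78 ran from 52.4 to 85.1 and from 48.4 to 90.3, and MOR256-17 from 129 to 211 and from 123 to 229. The 95% intervals of these 4 genes reached at most 0.97 in size, and that of I7 (-0.97 to 0.53) included the estimate that I7 had under Kir2.1.

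**Figure D5:**
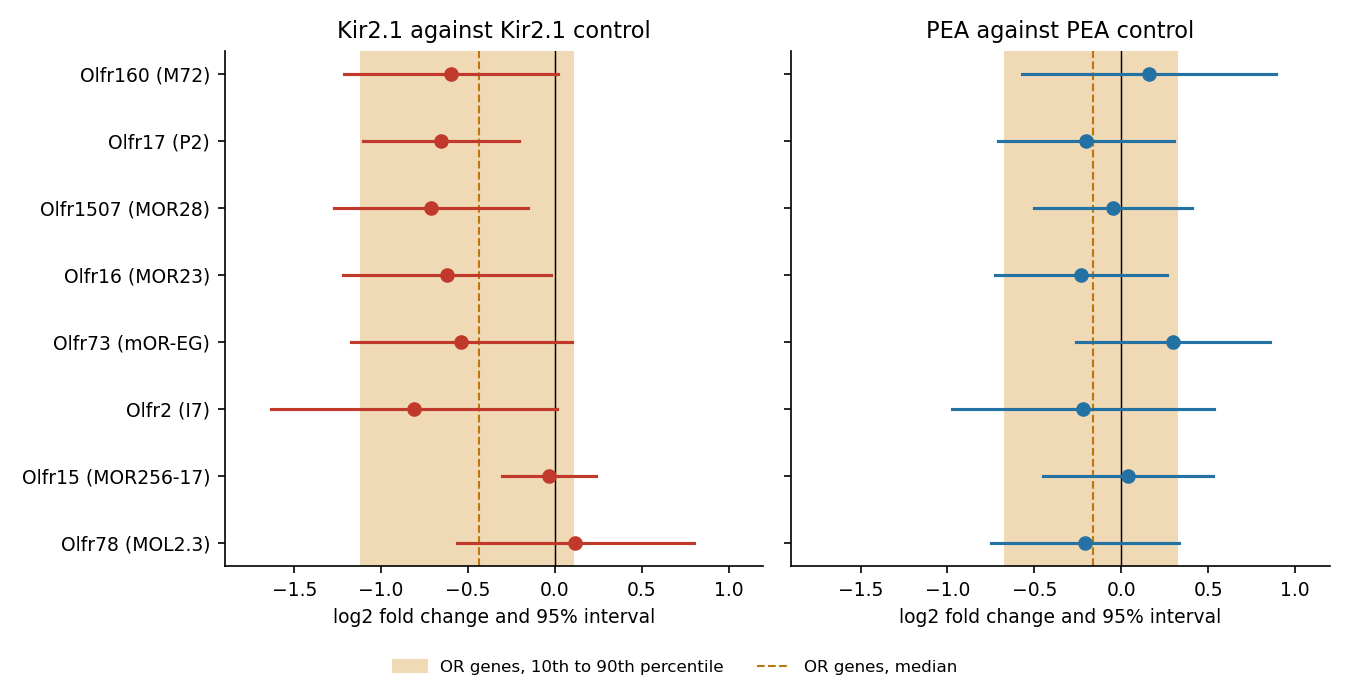
Log2 fold change with its 95% interval (limma) of the 8 members tested in Kir2.1 mice (left) and PEA mice (right) against their controls; the band spans the 10th to the 90th percentile of the OR genes tested and the dashed line is their median. In the Kir2.1 panel 6 members lie left of the OR median of -0.44 and MOR256-17 and Olfr78 right of it, and in the PEA panel all 8 intervals cover 0.

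Among the pathway genes, 33 were tested in the PEA experiment and 0 passed limma's adjusted p of 0.05 in either direction. Over all genes tested, 15.0% had an unadjusted limma p under 0.05 in either direction. Of the 33 pathway genes, 4 had such a p in the lower direction and 2 in the higher. The smallest p belonged to Ncam2, an adhesion molecule of OSN axons (log2 fold change -0.60, SE 0.15, limma adjusted p = 0.131), and Gnal, the G protein of OR signaling (-0.37, SE 0.11, limma adjusted p = 0.165). Omp, whose product marks mature OSNs, was higher in the PEA mice with no overlap (8460.2 ± 1146 against 6817 ± 547, SD, n = 4; exact permutation p = 0.0286, limma adjusted p = 0.252). Mature OSN markers summed to 30695 to 34636 in the control mice and 29870.2 to 35030.2 in the PEA mice, so as a list they overlapped. The mean log2 value of vomeronasal receptor genes was high in 3 control mice and 1 PEA mouse, and the part of this in the members' values was not tested.

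Near the members, 0 of 63 OR genes tested passed the adjusted threshold of limma in the PEA experiment, and 3 had an unadjusted p under 0.05 in the lower direction and 1 in the higher, beside 10.1% and 1.6% of the OR genes tested. Olfr874, which starts 28.9 kb from M72, had the lowest estimate, with means of 64.2 and 21.5 (log2 fold change -1.58, SE 0.31, limma adjusted p = 0.0847). M72 itself had an estimate of 0.16. Olfr550, a neighbor of Olfr78, had the highest, with means of 34.4 and 114 (log2 fold change 1.85, SE 0.46, limma adjusted p = 0.130). The study, which used DESeq2 on these mice, named Olfr550 among the OR genes that PEA exposure raised.

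M71 was the only member under the minimum mean of 10 and so was not tested with the others. It was at 3.12, 9.52 and 2.01 normalized counts in Kir2.1 control mice and at 4.74, 8.03 and 4.21 in Kir2.1 mice (exact permutation p = 0.6), a few reads per mouse. In the PEA experiment it was at 1.88, 0, 0 and 4.93 in the control mice and 3.83, 6.23, 1.14 and 5.92 in the PEA mice (exact permutation p = 0.2). Both pairs of groups overlapped. M71 made up 2.06% to 12.8% of the summed normalized counts of M71 and M72 over the 6 mice of the first experiment and 0% to 26.7% over the 8 of the second. These shares were not divided by length. The M71 model has 1128 bases and the longest M72 transcript 3492, so the shares understate M71 relative to M72 per kb. Per kb, M71 and M72 had means of 5.02 and 16.07 in Kir2.1 mice and 3.79 and 7.79 in PEA mice. The means of M71 per kb were also below those of M72 in both control groups, as given above.

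The log2 ratio of M71 to M72, with 1 added to each, asked whether both twins moved alike. It was -3.90, -3.35 and -5.00 in the Kir2.1 control mice and -3.52, -2.62 and -3.26 in the Kir2.1 mice. The difference was 0.95, with Kir2.1 mouse 1 inside the control range (exact permutation p = 0.2). In the PEA experiment the ratio averaged -3.55 ± 1.37 among controls and -2.48 ± 1.03 among PEA mice (SD, n = 4), a difference of 1.07 with overlapping groups (exact permutation p = 0.257). These differences depend on the number added: with 5 in place of 1 they were 0.73 (exact permutation p = 0.1) and 0.35 (exact permutation p = 0.486). At 0 to 10 reads of M71 per mouse, a small difference in this ratio was not detectable. With 3 against 3 mice, the exact permutation test could not give a p under 0.1 for a difference of any size.

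The patterns of M72, P2 and MOR28 over the 14 mice were compared with those of the other ORs, using the root mean square (RMS) difference of log2 values after each gene was centred within its experiment. Among 972 OR genes tested in both experiments, the closest to P2 was Olfr19, on chromosome 16, at an RMS difference of 0.15 (median over OR genes 0.48). The closest to MOR28 was Olfr449, on chromosome 6, at 0.19 (median 0.52), and the closest to M72 was Olfr847, on chromosome 9, at 0.26 (median 0.57). As each closest gene was picked from 972 and all share the depth and scaling of the same libraries, these values are descriptions without a test.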

How the data were processed

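The authors estimated transcript abundance with Salmon 1.3.0 (GRCm38, Ensembl release 100), summed it per gene with tximport and scaled it with DESeq2 1.30.0 within each experiment. The deposited values are thus a normalized signal per gene, called normalized counts here. Reads of the Kir2.1 experiment (40 bases, unstranded) came from poly-A RNA, and those of the PEA experiment (150 bases, stranded) from RNA without ribosomal RNA. The methods describe a reverse-stranded Salmon setting for all libraries, and what this did to the unstranded Kir2.1 reads cannot be read from the values. Of all values above 0 in a mouse, 11.3% to 14.2% (Kir2.1 experiment) and 4.21% to 5.76% (PEA experiment) were whole multiples of the most common step, within 0.01. Whole reads could thus not be recovered, and no count model was used.

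Genes with a mean of at least 10 in an experiment were tested with limma 3.58.1 in R 4.3.3 on log2(value + 1), with empirical Bayes moderation, a mean-variance trend and Benjamini-Hochberg adjustment over all genes tested (threshold 0.05), each experiment alone, after a trial on simulated data. Single values were compared with exact two-sided permutation tests over mice, whose smallest p is 0.1 for 3 against 3 and 0.0286 for 4 against 4. Per the methods, the Kir2.1 controls were littermates of the Kir2.1 pups, but which mice shared a litter is not given. Positions, transcripts and sequences came from GENCODE vM21 (GRCm38), and Python 3.11.15, pandas 2.3.3, scipy 1.17.1, Biopython 1.88 and matplotlib 3.10.9 did the rest. Identity was computed on coding bases. Promoters were not analysed, because the RefSeq windows at hand, found for 5 of 9 members by symbol, lay 2562 to 8097 bases from the GENCODE starts.

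The members, the pathway and marker lists and the tests were chosen with earlier results of these data known. All 9 members are named, with Kcnj2 and Omp, pathway genes past the threshold or else the 2 with the smallest p, and nearby OR genes past the threshold or else the 2 with the largest difference. PEA control 4 has the number 5 in its library name. Same-numbered mice did not deviate together (r = -0.06, -0.01 and 0.16 for Kir2.1, and 0.13, -0.02, -0.05 and 0.10 for PEA).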

Additional observations from a re-analysis of the deposited data

How the results depend on the processing

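In both experiments 0 members passed the adjusted threshold with a pseudocount of 0.5 or 5, without the filter, with a minimum of 50 (which leaves out I7, and for PEA also M72 and mOR-EG), without the trend in limma, after quantile normalization and with each mouse left out (0 to 0). In the Kir2.1 experiment 1 member, MOR256-17, passed with genes centred on OR genes or on mature neuron markers (log2 fold change 0.44 and 0.39), when 10510 and 10108 of 19807 genes and 5 and 3 nearby OR genes passed. With DESeq2, the study called more genes in each experiment than limma did here with the settings given above. Those limma calls over all genes were 70 for Kir2.1, with 20 without a trend and 23 to 44 with a mouse left out. For PEA they were 31, with 52 without a filter, 55 with mature-marker centring and 19 to 43 with a mouse left out. Nearby OR calls for PEA were 0 to 1. For these the cause was not tested. With the replicate block, which pairs mice by number, 9 genes passed for Kir2.1, 0 members passed in either experiment, and the M71 to M72 ratio gave exact permutation p = 0.25 and 0.125, the smallest that 3 and 4 pairs allow.

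The count of members lower at an unadjusted limma p of 0.05 in Kir2.1 mice was 3 with the settings given above. It was 0 under both centrings, 2 with a minimum of 50, 2 with the replicate block and 4 without a trend, and 2 to 4 with a mouse left out. The number of all genes under this p in either direction also changed. It was 2205 with the settings given above, 12236 and 11770 with OR and mature-marker centring, and 1574 to 2372 with a mouse left out. With a minimum of 50, the replicate block and no trend it was 1847, 2106 and 2126. Changes in the count of members cannot be read apart from this. The count of members with separate groups was also 3 with those settings, and 3 to 5 with a mouse left out, a check added after the data were seen. It was 5 without Kir2.1 control 1 and without Kir2.1 mouse 1, when M72 and mOR-EG joined. Leaving out a mouse cannot make separate groups overlap, so this count could not fall below 3 and does not measure stability. Signs turned for MOR256-17 in Kir2.1 mice (-0.093 to 0.049 with a mouse left out) and for Olfr78 (-0.17 to 0.39). In PEA mice they turned for MOR256-17 (-0.035 under quantile normalization, -0.10 to 0.20 with a mouse left out), MOR28 (0.10 with OR centring, -0.21 to 0.084) and M72 (-0.059, without PEA 2, to 0.37). The ratio's difference ranged from 0.49 to 1.32 and from 0.56 to 1.61 with a mouse left out, and was 0.73 and 0.35 with a pseudocount of 5. With all annotated exons in place of the longest transcript, 26 of 36 places in the order per kb were the same. At this depth and with 3 or 4 mice, the intervals of most members were over 1 log2 unit wide.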

Other observations

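The other cell types of the epithelium gave the background to the receptor values. In the Kir2.1 experiment, 0 of 5 markers of globose basal and dividing cells, 0 of 3 of horizontal basal cells, 0 of 5 of sustentacular cells and 0 of 5 of Bowman gland and respiratory epithelium had an unadjusted p under 0.05 by limma. Beside these, 2205 of all 19807 genes tested had such a p in either direction. The sums of the sustentacular markers, which come from the supporting cells around OSNs, were 207224 to 263078 in the control mice and 210709.5 to 230758 in the Kir2.1 mice. Gland and respiratory markers varied widely within groups, from 22151 to 187501 and from 39271 to 202917. Of 574 vomeronasal genes, 96 were tested. Of these, 5 had an unadjusted limma p under 0.05 in the lower direction, beside 6.20% of all genes tested. The list summed to 1731 to 12314 in the control mice and 1667 to 1740 in the Kir2.1 mice. The high values were in Kir2.1 control 1. The minimum mean of 10 was taken over all 6 mice, so high values in 1 control favored genes lower in Kir2.1 mice. No conclusion is drawn from the direction of these genes.

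In the PEA experiment, Krt14 and Krt5, keratins of horizontal basal cells, were the 2 of 3 markers of that list with an unadjusted p under 0.05 in the higher direction. Their list summed to 698 to 845 in the control mice and 922 to 1103 in the PEA mice, without overlap, and 0 of 3 passed limma's adjusted p of 0.05. Gland and respiratory markers had 2 of 5 in the higher direction at an unadjusted p under 0.05, sustentacular markers 1 of 5, immature OSN markers 1 of 6, dividing cell markers 0 of 5, and blood and immune markers 0 of 5. Of 127 vomeronasal genes tested, 6 had an unadjusted limma p under 0.05 in the lower direction. Vomeronasal values were high in PEA control 1 to 3 and in PEA 1, so the minimum mean favored genes lower in PEA mice. No conclusion is drawn from the direction of these genes. Beside these counts, 15.0% of all genes tested had an unadjusted limma p under 0.05 in either direction. None of these lists had a marker past limma's adjusted threshold.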
